A study of Mus musculus with 4 samples.

Results

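The genes described here are 10 members of the epidermal growth factor (EGF) system, comprising the receptors Egfr, Erbb2 and Erbb4 and the ligands Egf, Tgfa, Areg, Hbegf, Nrg1, Nrg2 and Nrg3. They were found by symbol, 1 row each, among the 24771 features of the expression table. The other family genes Erbb3, Btc, Ereg, Epgn and Nrg4 were read beside them, which gives 4 receptors, 7 EGF-type ligands and 4 neuregulins. Paired-end RNA-seq was performed on 2 samples of salivary gland (SG) placodes made from pluripotent stem cells (PSCs) and on 2 samples of submandibular glands (SMGs) of mouse embryos at E12.5. The placodes, which the labels call mES-derived induced embryonic salivary glands (iE-SGs), were collected on day 10 of culture of mouse embryonic stem cells. Cells were seeded at 3000 per well, and the medium held 2% growth factor reduced Matrigel after a medium change on day 1. BMP4 at 2 ng/ml was added on day 3, bFGF at 25 ng/ml with retinoic acid (RA) at 1 μM on day 4, and FGF10 at 200 ng/ml on day 6. No EGF family ligand is named among the additives. The labels describe all samples as untreated and repeat this culture protocol for the glands, while the strain of the embryos, the number of glands pooled and the way they were dissected are not given in the sources used here. The placodes came from 1 embryonic stem cell line, and nothing states that the samples of a group were separate cultures or litters. The p-values below set the group differences against the spread between samples of a group, pooled in part over features. This spread may therefore be technical.

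ErbB receptors are receptor tyrosine kinases that dimerise when a ligand binds. EGF, TGF-α (Tgfa) and amphiregulin (Areg) bind EGFR, HB-EGF (Hbegf) binds EGFR and ErbB4, and the neuregulins bind ErbB3, ErbB4 or both. ErbB2 has no known soluble ligand and serves as a partner of the other receptors, and ErbB3 has little kinase activity of its own. In cultured embryonic SMGs, EGFR ligands and neuregulins are known to promote epithelial branching, and the ducts of adult mouse SMGs are a rich source of EGF. ErbB4 and neuregulins are also known for their roles in the developing nervous system and heart.

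All ligands share the EGF-like domain, a fold held by 3 disulfide bonds between 6 cysteines, and this part of the protein touches the receptor. The coding sequences of this domain are shown for 5 of the ligands, chosen to let EGF-type ligands and neuregulins be compared, and were read from GENCODE M21 transcripts on GRCm38, 5′ to 3′ on the coding strand, from the first to the last of the cysteine codons, which are in capitals.
Tgfa: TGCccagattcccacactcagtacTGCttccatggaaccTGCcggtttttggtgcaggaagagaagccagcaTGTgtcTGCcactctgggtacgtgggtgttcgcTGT
Areg: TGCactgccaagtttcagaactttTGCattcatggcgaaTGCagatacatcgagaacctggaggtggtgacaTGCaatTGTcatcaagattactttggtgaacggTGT
Egf: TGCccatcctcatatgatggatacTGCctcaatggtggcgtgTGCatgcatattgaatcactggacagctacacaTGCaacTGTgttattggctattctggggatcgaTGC
Nrg1: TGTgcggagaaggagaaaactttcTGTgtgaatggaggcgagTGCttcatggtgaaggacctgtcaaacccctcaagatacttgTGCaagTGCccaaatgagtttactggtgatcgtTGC
Nrg3: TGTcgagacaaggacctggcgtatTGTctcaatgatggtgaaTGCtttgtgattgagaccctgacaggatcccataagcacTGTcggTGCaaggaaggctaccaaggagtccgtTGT
The domain spans 36 codons in Tgfa and Areg, 37 in Egf, 39 in Nrg3 and 40 in Nrg1. The spacing differs between the middle cysteines, with 10 codons between the third and the fourth in Tgfa, Areg and Egf, 12 in Nrg3 and 13 in Nrg1. Nrg4, a neuregulin whose sequence is not printed, has 37 codons with 10 at this place, as Egf does. The spacing thus does not set all neuregulins apart from the EGF-type ligands. The domains of Hbegf and Nrg2 were not read. In each of the 5 genes the stretch is split over 2 coding exons. The stretches span chr6:86263200-86269960 (plus strand) for Tgfa, chr5:91143614-91144364 (plus strand) for Areg and chr3:129686322-129690850 (minus strand) for Egf. That of Nrg1 spans chr8:31837698-31849398 (minus strand) and that of Nrg3 chr14:38668261-39012054 (minus strand). The values below are per gene, so isoforms that differ in this domain, as those of Nrg1 do, are not separated.

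Levels are given as FPKM, the mapped fragments of a gene scaled to its transcript length and to the mapped fragments of the sample, so that genes can be set side by side. The FPKM of all features summed to 361963 to 365066 in placodes and 373962 to 384773 in SMGs, and between 12636 and 12807 features had an FPKM of at least 1. Read counts are not known, so neither the depth nor the smallest detectable level can be given. Features with a mean FPKM of at least 1 over the 4 samples were tested with limma on log2(FPKM + 1), and the log2 fold changes (placodes minus SMGs) are differences on that scale, which are smaller than ratios of FPKM where levels are low. Adjusted p-values are two-sided, with Benjamini-Hochberg adjustment over all 13193 tested features, and values under 0.05 are called different. For a single gene, the smallest p that an exact permutation test allows in this design is 0.333. Paired values are given for sample 1 and then sample 2 of a group.

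Erbb2, Erbb3 and Egfr were the main receptors in the SMGs, whereas Erbb2 and Erbb4 were the main ones in the placodes. Of the ligands, Tgfa and Nrg3 were higher in the placodes, Hbegf was lower, and Nrg1 was present in both groups with no difference past the threshold. Of the 10 members, 7 were tested and 6 were called, 3 higher (Erbb4, Tgfa and Nrg3) and 3 lower (Egfr, Erbb2 and Hbegf) in the placodes, while 76.2% of all tested features were called. Higher calls made up 35.7% and lower calls 40.4% of all tested features, and calls of at least 2-fold on the log2 scale 29.4%. The members' share of calls is near this background. The 7 tested members had a median log2 fold change of 0.18, and all tested features together one of -0.05. Erbb4, Nrg3 and Tgfa reached the minimum only through their placode values. The members under the minimum, Egf, Nrg2 and Areg, had log2 fold changes of -0.06, -0.43 and -0.40 when fitted without it. Neither the count nor the median over the tested members is therefore support for a difference. For 9 of the 10 members the placode and SMG values stood apart, 4 higher and 5 lower in the placodes, as they did for 77.2% of the features above 0 in any sample and 88.4% of the tested features. On a log scale with a pseudocount of 0.1 in place of 1, the log2 fold changes of the low genes were larger, at 5.34 for Erbb4, 2.82 for Tgfa and 1.68 for Nrg3.

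**Figure D1:**
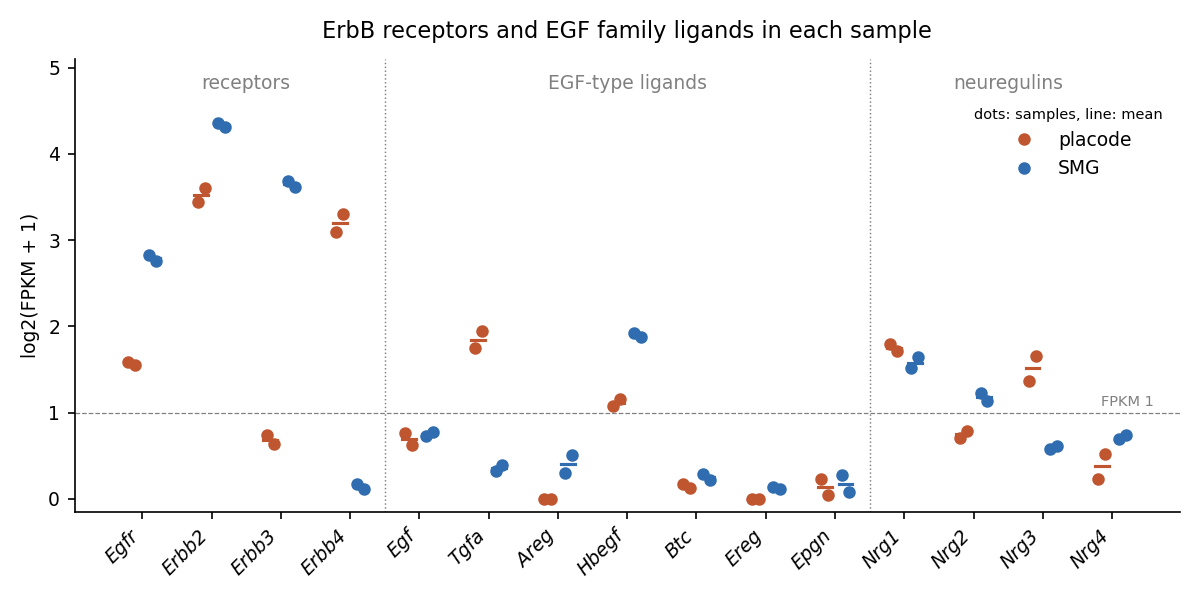
Levels of the 4 receptors, 7 EGF-type ligands and 4 neuregulins as log2(FPKM + 1), where each dot is a sample (2 placode samples in orange, 2 SMG samples in blue), each short line is a group mean and the dashed line is an FPKM of 1. Erbb4 and Erbb3 change places between the groups, and no ligand reaches an FPKM of 3 in any sample.

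Erbb4, the neuregulin receptor with its own kinase activity, reached an FPKM of 7.51 and 8.85 in placodes but only 0.125 and 0.0850 in SMGs. The groups were far apart, and the gene was well above 1 in both placodes and near 0 in both SMGs. The log2 fold change was 3.05 (standard error 0.12, 95% interval 2.76 to 3.34, adjusted p = 2.86e-06). Of all tested features, 3.99% had a larger absolute log2 fold change. Erbb4 reached the minimum only through its placode values, so this rank is no support for a difference. The mean FPKM of the placodes was 78.1 times that of the SMGs, a ratio that rests on SMG values near 0.1 whose precision is not known. Erbb4 lies at chr1:68032186-69108059 on the minus strand of GRCm38, and no other annotated gene shares its exons. Markers of neurons and neural progenitors were higher in the same samples, with values given after the ligands, and their part in the Erbb4 level was not tested.

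Erbb3, the neuregulin receptor with little kinase activity, showed the opposite pattern. Its FPKM was 0.671 and 0.550 in placodes and 11.8 and 11.2 in SMGs. The log2 fold change was -2.96 (standard error 0.10, 95% interval -3.21 to -2.72, adjusted p = 1.64e-06), and the mean FPKM of the SMGs was 18.9 times that of the placodes. Within each SMG sample, Erbb3 was 95.1 and 132 times as high as Erbb4, while within each placode sample Erbb4 was 11.2 and 16.1 times as high as Erbb3. All these ratios rest on values under an FPKM of 1, whose precision is not known. Erbb3, at chr10:128567523-128589652, is not on the list of 10 members and is given here as the remaining receptor. It reached the minimum only through its SMG values.

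Egfr, the receptor of EGF and TGF-α, was lower in the placodes. Its FPKM was 2.01 and 1.94 in placodes against 6.11 and 5.75 in SMGs, so the mean was 1.97 ± 0.0514 (SD, n = 2) against 5.93 ± 0.256 (SD, n = 2). The log2 fold change was -1.22 (standard error 0.10, adjusted p = 5.48e-05), and the SMG mean was 3.01 times the placode mean. Egfr lies at chr11:16752203-16918158 on the plus strand.

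Erbb2, the shared partner receptor, was the most abundant of the 15 family genes in every sample. Its FPKM was 9.87 and 11.2 in placodes and 19.5 and 18.9 in SMGs. Both placode values were below both SMG values, with a log2 fold change of -0.81 (SE 0.08, adjusted p = 1.40e-04) and an SMG mean 1.82 times the placode mean. Erbb2, at chr11:98412470-98437716 on the plus strand, shares exonic sequence with Mien1 on the other strand. Strand-specific counting is not stated, so reads from this overlap cannot be told apart. The values of Mien1 lay the other way, with an FPKM of 26.0 and 22.7 in placodes and 13.7 and 13.9 in SMGs.

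Set against the sum of the 4 receptors, Erbb2 held a like share in both groups, at 49.2% and 49.7% in placodes and 51.8% and 52.6% in SMGs. The share of Erbb4 was 37.5% and 39.2% in placodes and 0.332% and 0.236% in SMGs. For Erbb3 it was 3.35% and 2.44% in placodes and 31.6% and 31.2% in SMGs. The receptor beside Erbb2 was thus mainly Erbb4 in the placodes and Erbb3 in the SMGs. Egfr made up 10.0% and 8.58% in placodes and 16.3% and 16.0% in SMGs. The summed receptor FPKM was 20.1 and 22.5 in placodes and 37.6 and 36.0 in SMGs. These shares describe the samples and were not tested.

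**Figure D2:**
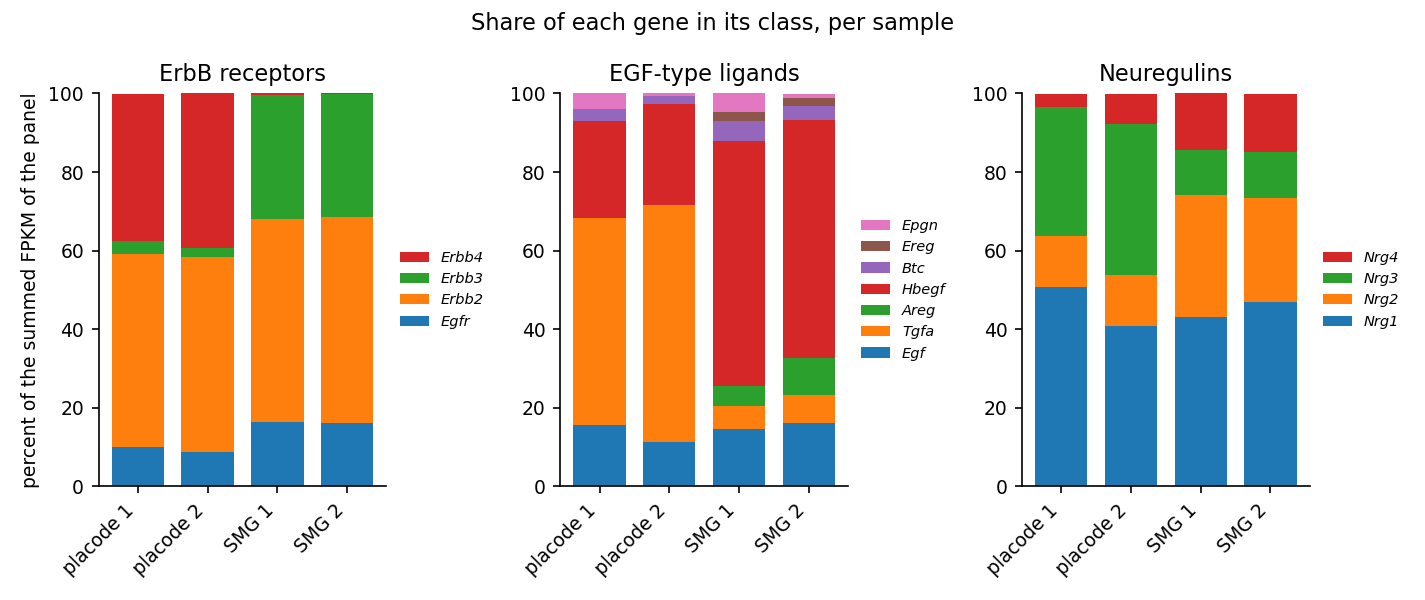
Percent of the summed FPKM of the 4 receptors (left), the 7 EGF-type ligands (centre) and the 4 neuregulins (right) held by each gene, with a stacked bar for each of the 2 placode and 2 SMG samples. Erbb2 takes 49.2% to 52.6% of the receptor sum in every sample, while Erbb4 and Erbb3 trade places, as do Tgfa and Hbegf among the EGF-type ligands.

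Among the EGF-type ligands, Tgfa was the main one in the placodes and Hbegf in the SMGs. Tgfa, which encodes TGF-α, had an FPKM of 2.35 and 2.86 in placodes and 0.253 and 0.312 in SMGs. The groups did not overlap, and the log2 fold change was 1.49 (standard error 0.12, 95% interval 1.18 to 1.79, adjusted p = 7.52e-05). The ratio of the mean FPKM was 9.23, which rests on low SMG values whose precision is not known. Tgfa lies at chr6:86195223-86275719 on the plus strand, and its EGF-like domain is the first of those printed above.

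Hbegf, which encodes a heparin-binding ligand of EGFR and ErbB4, had an FPKM of 1.11 and 1.23 in placodes and 2.80 and 2.66 in SMGs. Its log2 fold change was -0.78 (standard error 0.11, adjusted p = 7.14e-04), with an SMG mean 2.33 times the placode mean. The order of these ligands thus turned around between the groups. Tgfa was 2.12 and 2.33 times as high as Hbegf in placodes, and Hbegf was 11.1 and 8.52 times as high as Tgfa in SMGs. The SMG ratios rest on the low Tgfa values there, whose precision is not known. Hbegf lies at chr18:36504927-36515805 on the minus strand.

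Egf itself was low in all samples and its groups overlapped, the only member for which they did. It was at 0.696 and 0.540 in placodes and 0.658 and 0.710 in SMGs, under the minimum of a mean FPKM of 1. Fitted without a minimum, its log2 fold change was -0.06 (95% interval -0.31 to 0.19, limma adjusted p = 0.616). At this low level the scale shrinks ratios of FPKM, so the interval leaves room for larger relative changes in both directions. Egf lies at chr3:129677565-129755316 on the minus strand, and its exons, like those of Tgfa and Nrg1, overlap annotated genes on the other strand. Areg, which encodes amphiregulin, was listed at 0 in both placodes, whereas the SMGs had 0.233 and 0.419. It was under the minimum as well, and no fold is given against a group listed at 0. In the fit without a minimum, where 58.1% of 20464 features were called, Areg was lower in the placodes (log2 fold change -0.40, adjusted p = 0.0175). Areg lies at chr5:91139599-91148432 on the plus strand.

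The other EGF-type ligands Btc, Ereg and Epgn had an FPKM of at most 0.226 in every sample. Ereg, which encodes epiregulin, was listed at 0 in both placodes and was at 0.0994 and 0.0833 in SMGs. Btc, which encodes betacellulin, was at 0.131 and 0.0912 in placodes against 0.226 and 0.165. Epgn, which encodes epigen, differed more between samples of a group than between the groups, at 0.178 and 0.0342 in placodes and 0.214 and 0.0541 in SMGs. None of these 3 ligands passed the threshold in the fit without a minimum, with limma adjusted p-values of 0.0895 for Ereg, 0.221 for Btc and 0.794 for Epgn. The summed FPKM of the 7 EGF-type ligands was 4.47 and 4.76 in placodes and 4.48 and 4.40 in SMGs. Tgfa held 52.6% and 60.2% of it in placodes and 5.64% and 7.09% in SMGs, whereas Hbegf held 24.9% and 25.8% in placodes and 62.5% and 60.4% in SMGs.

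Nrg1, a ligand of ErbB3 and ErbB4 with many isoforms, was the most abundant neuregulin in both groups. Its FPKM was 2.47 and 2.29 in placodes and 1.86 and 2.12 in SMGs. The placode values were above the SMG values, but the difference did not pass the threshold, with a log2 fold change of 0.18 (SE 0.11, 95% interval -0.09 to 0.45, limma adjusted p = 0.183). The interval leaves room for a placode level slightly below or moderately above that of the SMGs. Nrg1 lies at chr8:31814551-32884029 on the minus strand, where 12 protein-coding transcripts are annotated.

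Nrg3, a ligand of ErbB4 known mainly from the nervous system, was higher in the placodes. Its FPKM was 1.59 and 2.15 in placodes and 0.489 and 0.532 in SMGs, a log2 fold change of 0.92 (SE 0.14, adjusted p = 0.00109) and a ratio of the mean FPKM of 3.67. The SMG values behind this ratio are under an FPKM of 1, and their precision is not known. The placode samples differed more from each other than the SMG samples, with means of 1.87 ± 0.401 (SD, n = 2) and 0.510 ± 0.0305 (SD, n = 2). Nrg3 lies at chr14:38368952-39473088 on the minus strand.

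Nrg2, another ligand of ErbB3 and ErbB4, had an FPKM of 0.637 and 0.722 in placodes and 1.35 and 1.19 in SMGs. Its mean of 0.975 was just under the minimum, whereas Nrg3 with a mean of 1.19 was the tested member nearest to it. Without a minimum, Nrg2 was lower in the placodes (log2 fold change -0.43, 95% interval -0.69 to -0.18, adjusted p = 0.0183). It lies at chr18:36017652-36197380 on the minus strand. Nrg4, which binds ErbB4, was at 0.173 and 0.437 in placodes and 0.625 and 0.677 in SMGs and did not pass the threshold (log2 fold change -0.35, adjusted p = 0.0713 without a minimum). Exons of Nrg4 overlap the more abundant gene Fbxo22 on the other strand, which was at 18.1 and 17.8 in placodes and 21.7 and 21.4 in SMGs. The neuregulin sum was 4.86 and 5.60 in placodes and 4.32 and 4.52 in SMGs, of which Nrg3 took 32.7% and 38.4% in placodes and 11.3% and 11.8% in SMGs.

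**Figure D3:**
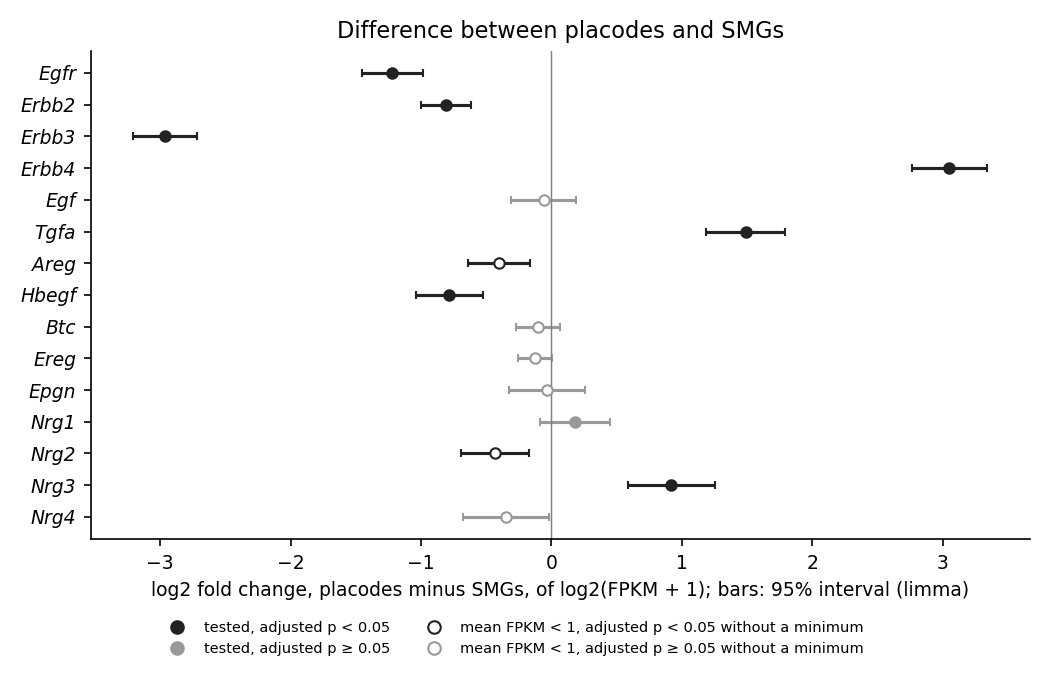
Log2 fold changes (placodes minus SMGs) of log2(FPKM + 1) with 95% intervals from limma for the 15 family genes, with filled symbols for the 8 tested genes, open symbols for the 7 under the minimum (fitted without it) and grey for an adjusted p of at least 0.05. Erbb4 at 3.05 and Erbb3 at -2.96 lie farthest from 0, and the intervals of Egf, Nrg1, Btc, Ereg and Epgn include 0.

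In the placodes, the order of the 15 family genes by mean FPKM was Erbb2, Erbb4, Tgfa, Nrg1, Egfr, Nrg3, Hbegf, Nrg2, Egf, Erbb3, Nrg4, Btc and Epgn, followed by Areg and Ereg at 0. The sample values of neighbours overlapped for Tgfa and Nrg1, Egfr and Nrg3, Nrg2 and Egf, Egf and Erbb3, and Btc and Epgn. In the SMGs the order was Erbb2, Erbb3, Egfr, Hbegf, Nrg1, Nrg2, Egf, Nrg4, Nrg3, Areg, Tgfa, Btc, Epgn, Erbb4 and Ereg. Here the neighbours that overlapped were Egf and Nrg4, Areg and Tgfa, Btc and Epgn, Epgn and Erbb4, and Erbb4 and Ereg. The receptors were thus apart from the ligands in the SMGs except for Erbb4, which ranked among the lowest ligands there. Compared with all tested features, the levels were low to moderate. Erbb2 was at percentiles 48.2 and 51.5 in placodes and 69.1 and 68.5 in SMGs, and Erbb4 was at 40.4 and 44.8 in placodes and 1.77 and 1.55 in SMGs.

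Markers of the cell types that such samples can hold differed between the groups. All 8 epithelial markers were lower in the placodes, with summed FPKM of 4.71 and 5.55 against 576 and 559 in SMGs, and the basal keratins Krt5, Krt14 and Krt15 were listed at 0 in both placodes. All 6 mesenchyme markers were lower as well, at 107 and 104 against 959 and 948. In contrast, all 5 neuron markers were higher, at 792 and 824 against 69.7 and 61.7, as were all 4 neural progenitor markers, at 233 and 242 against 36.4 and 34.3. Defining markers of epithelium were thus low or listed at 0 in the placode samples, whose labels name salivary gland. In the SMGs, Pitx1 alone gave 245 and 253 of the epithelial sum. Among all tested features, 35.7% were called higher and 40.4% lower. Krt5, Krt14, Krt15, Trp63, Pitx1 and Fgf10 reached the minimum only through their SMG values, and Sox1 and Pax6 only through their placode values. The marker counts are therefore no support for a difference.
Erbb3 is also known from Schwann cell precursors. Sox10, a transcription factor present in these cells, was lower in the placodes, at 2.00 and 1.58 against 19.1 and 16.7 (log2 fold change -2.76, limma adjusted p = 3.63e-06). Which cells of the samples expressed Sox10 was not tested. Foxd3, a transcription factor of neural crest cells, was at 4.40 and 3.56 against 2.99 and 3.15 and did not pass the threshold (log2 fold change 0.29, limma adjusted p = 0.064). The 3 endothelial markers summed to 9.66 and 9.08 against 81.0 and 87.3, the 3 skeletal muscle markers to 0 and 0.0648 against 39.7 and 28.7, the 3 macrophage markers to 1.68 and 2.01 against 6.44 and 5.62 and the 3 erythroid markers to 0 and 0.0586 against 2154 and 2060. Every tested gene of these 4 lists was called lower in the placodes, as were 40.4% of all tested features. All of them but Cdh5 and Csf1r reached the minimum only through their SMG values, so the common direction is no support for a difference. The part of these cell types in the receptor and ligand values was not tested, and in bulk samples fewer cells of a type and less RNA per cell cannot be told apart.

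Ligands of this family are made as membrane proteins and released by proteases. Of 10 genes for ligand processing and shedding, 9 were tested, of which 1 was higher, 6 were lower and 2 did not pass the threshold in the placodes. Their median log2 fold change was -0.73, while that of all tested features was -0.05 with 76.2% called (35.7% higher and 40.4% lower). Adam9, which encodes a metalloprotease, was the one that was higher, at 21.9 and 22.0 against 12.6 and 12.2 (log2 fold change 0.77, adjusted p = 4.63e-05). Adam12 had the lowest log2 fold change of the tested genes, with an FPKM of 0.660 and 0.614 in placodes and 15.9 and 17.2 in SMGs (log2 fold change -3.42, adjusted p = 7.91e-07), and reached the minimum only through its SMG values. Adam10, a sheddase of EGF, was the most abundant in both groups, at 48.4 and 47.4 in placodes and 51.2 and 51.1 in SMGs, and did not pass the threshold (log2 fold change -0.09, adjusted p = 0.111). Under quantile normalization it did, with a log2 fold change of -0.17 (adjusted p = 0.0151). Adam17, the main sheddase of TGF-α, amphiregulin and HB-EGF, and Furin, which cleaves proligands and proproteases, were picked once their values were known. Adam17 was at 11.0 and 9.95 in placodes and 17.6 and 18.4 in SMGs, and Furin was at 9.46 and 7.86 against 30.4 and 30.6.

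Adaptors and effectors carry the signal from the phosphorylated receptor. All 10 genes of this list were tested, with 4 higher, 4 lower and 2 not past the threshold, and a median log2 fold change of -0.05. The 80% called is near the 76.2% of all tested features, of which 35.7% were higher and 40.4% lower. Shc1, an adaptor of EGFR, had the lowest log2 fold change of the list and was its most abundant gene in the SMGs, at 10.8 and 9.71 in placodes and 52.4 and 55.2 in SMGs (log2 fold change -2.28, adjusted p = 1.07e-06). Grb2, which links receptors to Ras activation, was the most abundant in the placodes, at 67.7 and 70.3 against 31.2 and 31.6 (log2 fold change 1.11, adjusted p = 4.42e-06). Pik3r3, a regulatory subunit of phosphoinositide 3-kinase, had the highest log2 fold change, at 36.3 and 39.5 against 13.0 and 11.8 (log2 fold change 1.54, adjusted p = 6.11e-06).

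The genes for receptor turnover and inhibition were also all tested. Of these 10, 6 were higher, 3 were lower and 1 did not pass the threshold, with a median log2 fold change of 0.33. The 90% called stands beside 76.2% of all tested features (35.7% higher and 40.4% lower), whose median was -0.05. Lrig1, a transmembrane protein that restrains ErbB receptors, was the most abundant in both groups, at 45.4 and 46.7 in placodes and 24.7 and 25.4 in SMGs (log2 fold change 0.85, adjusted p = 1.52e-05). The related ubiquitin ligases Cblb and Cbl had the highest and the lowest log2 fold change of the list. Cblb was at 16.9 and 18.6 against 8.18 and 8.66 (log2 fold change 0.99, adjusted p = 5.02e-05), and Cbl was at 4.92 and 5.72 against 10.0 and 10.6 (log2 fold change -0.84, adjusted p = 2.86e-04). Errfi1, which encodes a feedback inhibitor of EGFR and was also picked once its values were known, had a mean of 26.9 ± 0.111 (SD, n = 2) in placodes and 13.4 ± 1.29 (SD, n = 2) in SMGs.

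Genes that respond to ERK, the kinase activated by ErbB and FGF receptors alike, did not move in a single direction. All 10 were tested, with 3 higher, 6 lower and 1 not past the threshold in the placodes, and a median log2 fold change of -0.48. Of this list 90% were called, beside 76.2% of all tested features (35.7% higher and 40.4% lower). Fos had the lowest log2 fold change, at 1.52 and 2.10 in placodes and 39.5 and 40.7 in SMGs (log2 fold change -3.88, adjusted p = 8.81e-07). Dusp6, an ERK phosphatase, was the most abundant in the SMGs, at 5.46 and 5.96 against 48.3 and 50.2 (log2 fold change -2.91, adjusted p = 4.39e-07). Dusp4, another MAP kinase phosphatase, went the other way, at 121 and 119 in placodes and 6.03 and 4.33 in SMGs (log2 fold change 4.30, adjusted p = 9.47e-07). These genes also respond to FGF, which was given to the placodes, and the share of any receptor in their levels was not tested. Over these 4 lists and the 5 other family genes, 34 of 40 tested genes were called, 14 higher and 20 lower, or 85.0% against 76.2% of all tested features. Of these genes, Erbb3, Adam12 and Fosl1 reached the minimum only through their values in the higher group, so this share is no support for a difference.

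**Figure D4:**
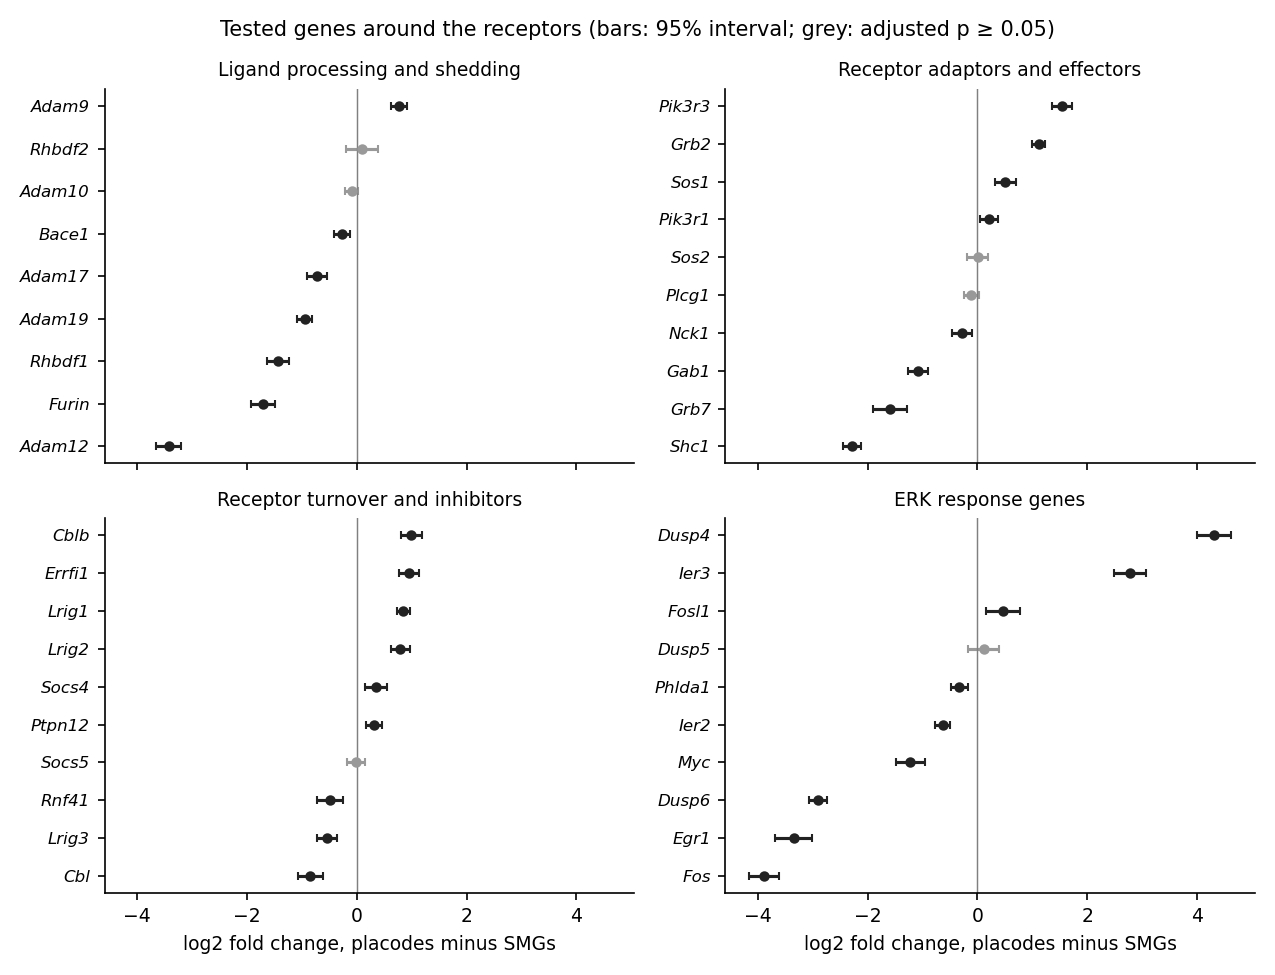
Log2 fold changes (placodes minus SMGs) of log2(FPKM + 1) with 95% intervals for the tested genes of 4 lists around the receptors, where grey marks an adjusted p of at least 0.05. Most genes of ligand processing lie left of 0, most genes of receptor turnover and inhibition lie right of 0, and the ERK response genes spread from -3.88 for Fos to 4.30 for Dusp4. Of all tested features, 35.7% were called higher and 40.4% lower.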

How the data were processed

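Total RNA of 2 samples of PSC-derived SG placodes and 2 samples of E12.5 SMGs was sequenced by the authors, who mapped the reads with HISAT2 and deposited FPKM per gene for each sample. GRCm38 is named in the submitters' processing notes, beside GRCh38. The program that computed FPKM, the annotation and the use of strand are not given in the sources used here, and depth per sample is unknown.

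Samples were grouped by their titles. FPKM was transformed as log2(FPKM + 1), and limma 3.58.1 (lmFit, eBayes with trend) in R 4.3.3 was run on the 13193 features whose mean FPKM was 1 or more, with group as the only term and Benjamini-Hochberg adjustment. The procedure was run on simulated data in which far fewer features were set to differ than were called here, so that run gives no error rate for these data. Positions and coding sequences came from GENCODE M21, which matched all 15 family genes by identifier and symbol, and were read with Biopython 1.88. EGF-like domains were found in the translated reading frame of the principal transcript by the spacing of 6 cysteines, which matched once in each ligand shown.

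The members, lists and tests were chosen with earlier results of these data known. The genes named are all 15 family genes and, in each other list, the tested genes with the highest and lowest log2 fold change and the most abundant gene in each group. Adam17, Furin and Errfi1 fall outside this rule and were picked with their values known, and genes that overlap a family gene are named for that overlap. Cell type markers are given as counts and sums, with single ones named for their level, their part in a sum or the minimum. Part of the glial marker list is not reported here, so Sox10 and Foxd3 are given singly. Alternatives were another pseudocount (0.1 or 0.001), minimum (none or 5) or scaling (TPM, median-ratio, quantile, or an equal sum without mitochondrial and hemoglobin genes), a replicate block, eBayes without trend and each sample left out.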

Additional observations from a re-analysis of the deposited data

How the results depend on the processing

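The 6 calls among the members kept their direction and stayed past the threshold under every alternative in which they were tested, the fits without a sample included. With a minimum mean FPKM of 5 only Erbb2 was left among the members, so 1 member was called, 0 higher and 1 lower. Without a minimum, 5 members were lower, the added ones being Nrg2 and Areg. Erbb4 ranged from 2.95 to 6.29, Tgfa from 1.39 to 3.20, Nrg3 from 0.78 to 1.86 and Hbegf from -1.22 to -0.73 on the log2 scale, with the values farthest from 0 at the smaller pseudocounts. Without Erbb3 in the sum, the mean receptor shares in the SMGs were 23.5% for Egfr, 76.1% for Erbb2 and 0.414% for Erbb4, and Erbb2 was at 50.9% in the placodes. Of the tested named genes under the alternatives, 273 results kept their direction and side of the threshold and 1 came to pass it, which was Adam10 under quantile normalization. The samples share only a replicate number (r = -0.03 between the replicate differences of the groups), and with the replicate block 10043 features, 6 members and 34 genes of the lists around them were called, against 10049, 6 and 34 without it, and no member's call changed. In the fits without a sample, which assume that the lone sample of a group varies like the other group, 8501 to 9087 features were called. The unknown depth limits the genes under an FPKM of 1 most.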
